A study of Mus musculus with 18 samples.

Results

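The regions described here are the 2393 promoter peaks of accessible chromatin that were listed for stress BFU-E of the spleen and for which the list of BFU-E from unstressed bone marrow (BM) held no overlapping interval. BFU-E (erythroid burst-forming units) are early progenitors committed to the red cell lineage, and peaks were measured by ATAC-seq, in which a transposase cuts and tags open DNA. A stress peak was taken when the authors' annotation placed it within 1000 bp of a transcription start site (TSS) and when no BM interval shared a base with it. The members were thus chosen by measured peak calls in both populations. These 2393 were 16.9% of the 14131 promoter peaks of the stress list (95% Wilson interval 16.3 to 17.6%, which covers counting error only) and 3.88% of its 61661 intervals. They are called stress-only promoter peaks below, and the 11738 other promoter peaks of the stress list, which did overlap a BM interval, are called shared.

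The cells came from mice of B6SJL background. Steady-state BFU-E were sorted from the marrow of mice with no treatment named in the labels, and stress BFU-E from spleens at day 8 after lethal irradiation and a transplant of unfractionated bone marrow. From the same kind of spleen came the earlier multipotent progenitors (MPP, labelled Sca-pos) and the later erythroid colony-forming units (CFU-E, labelled CD9-neg), while both BFU-E populations were labelled Sca-neg. All were depleted of cells bearing lineage antigens before sorting, and the biotinylated antibodies carried a different dye in the steady-state sorts. Tissue, irradiation with transplantation, and that staining changed together between the BFU-E populations and cannot be told apart. RNA was sequenced in 3 libraries for each of the 4 populations. ATAC-seq was done in 3 libraries for each BFU-E population, but the deposited peaks are 1 merged list per population. No spread between ATAC libraries could therefore be had, and the depth of those libraries is unknown here, so a region that was less open in BM and a region that was missed by BM peak calling cannot be told apart.

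As background, most mouse promoters are rich in the dinucleotide CpG and open in many cell types, whereas promoters poor in CpG are open in fewer cell types and more often carry sites of lineage factors. Erythroid genes are bound by GATA factors together with the E-box factor TAL1, by RUNX and ETS factors in earlier progenitors, and by KLF1, which reads a CACCC element, in later ones. In the mouse, erythroid recovery after irradiation runs largely in the spleen, where progenitors expand quickly from MPP through BFU-E to CFU-E.

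The sequences below show what such a peak looks like at 7 genes on which the RNA results turn. They belong to 4 genes that changed along the stress stages (Itgb3, Timp3, Ank1 and Mmrn1), to the erythroid regulator Gata1, and to 2 genes of myeloid cells that stood lower in stress than in BM BFU-E (Lsp1 and Irf5). Each is a stretch of the stress-only peak outside annotated exons, read 5′ to 3′ on the strand of the gene from mouse build GRCm38 (mm10). Capitals mark matches on either strand to the letters of 7 motifs. GATA stands for AGATAA or TGATAA. The ETS letters are CCGGAA and those of RUNX are TGTGGT. KLF was searched as CCNCNCCC and the GC box as GGGCGG. The E-box was CAGCTG or CAGATG, and AP-1 was TGANTCA. GC box and KLF letters can overlap, and a match is a description of letters, not of bound protein. The stretches lie at chr11:104607850-104607999 (plus strand), chr10:86300975-86301119 (plus strand), chr8:23058671-23058820 (plus strand), chr6:60944167-60944316 (plus strand), chrX:7967940-7968089 (minus strand), chr7:142470945-142471094 (plus strand) and chr6:29529103-29529252 (plus strand). Those of Itgb3, Timp3, Ank1 and Gata1 held GC box letters, that of Mmrn1 held a GATA match and neither of these, and those of Lsp1 and Irf5 each held an AP-1 match and no GC box.
Itgb3: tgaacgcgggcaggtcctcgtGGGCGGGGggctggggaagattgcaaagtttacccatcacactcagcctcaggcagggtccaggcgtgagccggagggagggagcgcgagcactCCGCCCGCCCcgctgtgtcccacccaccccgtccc
Timp3: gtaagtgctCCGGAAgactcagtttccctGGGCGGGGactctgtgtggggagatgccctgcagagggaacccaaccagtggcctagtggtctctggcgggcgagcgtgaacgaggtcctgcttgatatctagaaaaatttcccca
Ank1: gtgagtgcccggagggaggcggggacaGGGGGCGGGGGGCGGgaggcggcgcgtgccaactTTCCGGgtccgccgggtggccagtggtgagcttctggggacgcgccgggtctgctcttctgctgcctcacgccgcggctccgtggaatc
Mmrn1: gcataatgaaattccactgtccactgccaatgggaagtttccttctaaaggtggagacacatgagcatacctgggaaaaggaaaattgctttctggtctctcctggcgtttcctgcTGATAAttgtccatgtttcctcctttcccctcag
Gata1: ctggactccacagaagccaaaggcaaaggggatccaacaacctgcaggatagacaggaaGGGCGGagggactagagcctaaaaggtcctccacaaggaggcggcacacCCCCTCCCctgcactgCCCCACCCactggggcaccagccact
Lsp1: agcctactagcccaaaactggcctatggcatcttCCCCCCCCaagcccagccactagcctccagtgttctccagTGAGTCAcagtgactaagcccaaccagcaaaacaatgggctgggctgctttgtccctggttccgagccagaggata
Irf5: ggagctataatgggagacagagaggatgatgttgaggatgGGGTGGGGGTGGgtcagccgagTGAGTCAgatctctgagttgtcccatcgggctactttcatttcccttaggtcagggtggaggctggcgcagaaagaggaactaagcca

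The stress-only promoter peaks were narrower, lower in the authors' peak score and farther from the TSS than shared promoter peaks. Their median width was 615 bp against 1050 bp for shared peaks, and their median score was 755 on a scale whose listed values ran from 415 to 1000. The score reached its top value of 1000 in 402 stress-only peaks (16.8%) and in 89.0% of shared ones. Because the rule takes peaks by presence in one list and absence from the other, these values describe the choice and were not tested. In width they lay between shared promoter peaks and the 25347 stress peaks that were both distal (over 1000 bp from a TSS) and absent from BM, whose median width was 440 bp. In score they resembled those distal peaks (median 734, with 14.7% at the top). The 129 promoter peaks listed in BM alone were 1.10% of the 11692 BM promoter peaks and had a median width of 436 bp and a median score of 534.

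Most stress-only promoter peaks lay close to the start site all the same. The median absolute distance was 218 bp, against 134 bp for shared peaks, and 710 (29.7%) had their centre within 100 bp of the TSS, against 39.3% of shared peaks. Upstream centres made up 44.0% of the stress-only peaks and 35.7% of the shared ones. By the authors' annotation 60.2% fell in the promoter class of the annotation, 19.3% in an intron, 8.86% in a 5′ untranslated region and 8.32% in a coding or other exon, and 90.9% of those with a gene type belonged to a protein-coding gene, against 95.5% of shared peaks. They were spread over the chromosomes: from 14.4% of stress promoter peaks on chromosome 13 to 19.8% on chromosome 15 were stress-only.

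**Figure D1:**
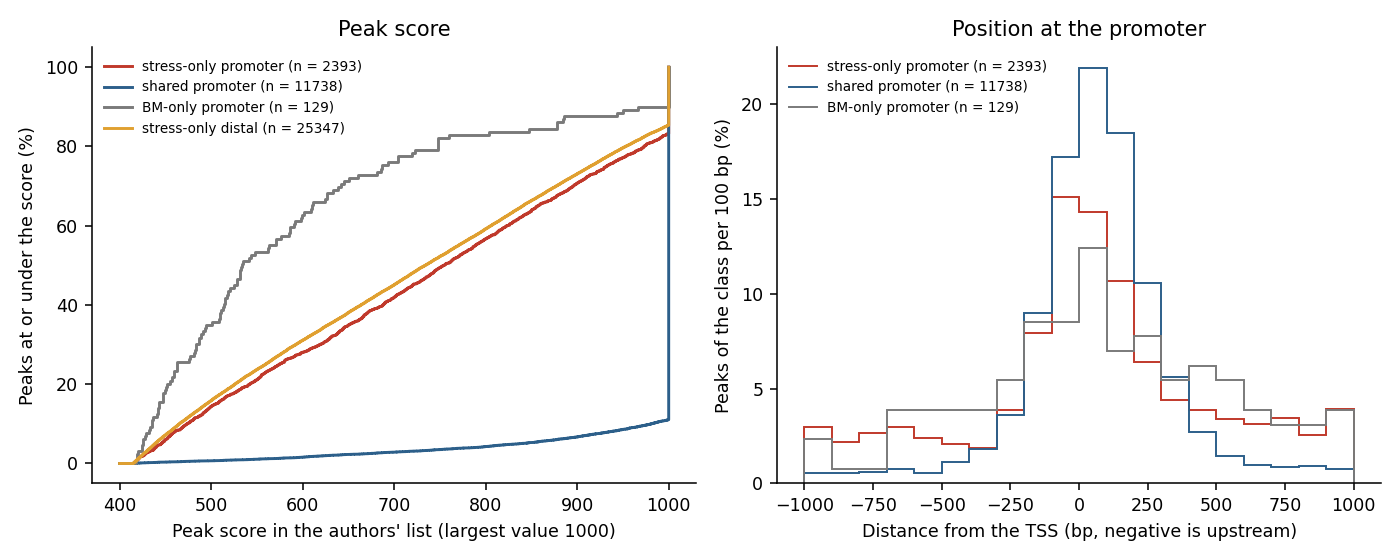
Left, the cumulative percent of peaks at or under each value of the authors' score, for stress-only, shared and BM-only promoter peaks and stress-only distal peaks. Right, the percent of promoter peaks in each bin of 100 bp from the TSS, negative values being upstream. The stress-only promoter curve runs beside the distal one, with 16.8% of peaks at the top score against 89.0% of shared peaks, and its position is less concentrated at the TSS.

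The 10 widest named peaks among those at the top score, a tie broken by width after the values were seen, ranged from 1592 to 1863 bp. They belonged to Nfix, a nuclear factor I transcription factor (1863 bp), Armcx2, Lypla2, Tfap4, a helix-loop-helix factor that binds E-boxes, Nxnl2, Cped1, Cxadr, the virus receptor and junction protein, the microRNA gene Mir7228, Rnf150 and Gpr176 (1592 bp). RNA of these 10 genes ranged from no reads in any library to reads in all of them. Gpr176 and Mir7228 were listed at 0 RPKM (reads scaled to exon length and library size) in all 12 RNA libraries, and Cped1 did not exceed 0.342 RPKM in any. Armcx2 read 10.9, 18.5 and 0 CPM (counts scaled to library size) in the 3 BM libraries and 24.2, 32.2 and 24.99 CPM in the 3 stress libraries, and Tfap4 read 48.6, 55.8 and 84.4 CPM and 85.2, 75.4 and 67.2 CPM. Nfix stood at 372, 264 and 279 CPM in the 3 BM libraries and at 223, 200 and 230 CPM in the 3 stress libraries.

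Of the 2393 peaks, 88 carried no gene name and 2305 named 2143 genes, by nearest start site. Of these genes 1994 had a single stress-only promoter peak, 139 had 2 and 10 had 3 or more, up to 5. The genes fell into 2 kinds. For 1680 genes the BM list held no promoter peak at all, while 463 had a BM promoter peak elsewhere within 1000 bp of a start site, so that the stress-only peak was an added one. The peaks of the first kind, with the unnamed ones (1897), were wide and central: their median width was 688 bp, their median distance to the TSS 182 bp, and the nearest BM interval lay a median of 10639 bp away. The 496 peaks of the second kind had a median width of 397 bp and a median distance of 650.5 bp, and 330 of them (66.5%) had a BM interval within 500 bp.

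A distance limit of 500 bp would take 1687 peaks and one of 2000 bp 3583. Just inside the distance limit were the peaks of the ubiquitin ligase gene Rchy1 at 995 bp, of the iron-sulphur scaffold gene Iscu at 998 bp and of the ribosome maturation gene Sbds at 998 bp. Just outside it were those of Wrnip1 at -1002 bp, Kif3b at 1003 bp, Smpd4 at -1005 bp and Xrn2 at -1006 bp, negative values being upstream. As to overlap, the stress promoter peaks least covered by a BM interval included those of Ltbp2 (47 bp) and Hectd3 (65 bp), which counted as shared. The stress-only peaks nearest to a BM interval were those of Irgq (13 bp), Cflar (17 bp) and Zbtb16 (22 bp).

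In base composition the stress-only promoter peaks were split nearly evenly, where shared ones were mostly CpG-rich. A peak was called CpG-rich when the stretch from 100 bp before to 100 bp after its centre had a GC share of at least 50% and an observed over expected CpG ratio of at least 0.6. By this measure 1125 stress-only peaks (47.0%) were CpG-rich, against 76.8% of shared promoter peaks, 39.5% of BM-only promoter peaks and 4.06% of stress-only distal peaks. Among peaks of genes with no BM promoter peak the share was 51.4%, and among peaks of genes with one elsewhere it was 30.04%. The CpG-rich peaks had a median width of 773 bp and lay a median of 158 bp from the TSS. The 1268 CpG-poor ones had a median width of 479 bp, lay a median of 324.5 bp from the TSS, and were upstream of it in 51.4% of cases.

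Motif letters were counted in the same window, on both strands, so that wide and narrow peaks were searched over equal lengths. GATA letters were in 224 stress-only peaks (9.36%, 95% Wilson interval 8.26 to 10.6%), against 4.21% of shared promoter peaks, 5.08% of all stress promoter peaks and 23.3% of stress-only distal peaks. RUNX letters were in 310 (12.95%), against 7.87% of shared and 8.73% of all stress promoter peaks. E-box letters were in 574 (23.99%), against 17.0% and 18.2%, and AP-1 letters in 4.81%, against 2.56% and 2.94%. For each of these motifs the stress-only promoter peaks lay between shared promoter peaks and stress-only distal peaks, of which 26.7% held RUNX, 29.98% E-box and 9.38% AP-1 letters. The 129 BM-only promoter peaks held GATA letters in 12.4%, RUNX in 13.95%, E-box in 23.3% and AP-1 in 3.88% of cases. They lay between the same classes, so this place was not particular to stress-only peaks. ETS, GC box, YY1 and KLF letters went the other way. ETS letters were in 229 (9.57%), against 17.8% of shared and 16.4% of all stress promoter peaks, GC box letters in 863 (36.1%), against 53.7% and 50.7%, and YY1 (AANATGGC) in 2.34%, against 5.47% and 4.94%. KLF letters were in 1084 (45.3%), against 54.1% and 52.6%. BM-only promoter peaks were below shared ones here too, with ETS letters in 3.10%, GC box in 30.2%, YY1 in 1.55% and KLF in 37.2%.

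Base composition moved with these shares, so they were also read within each class. Among CpG-poor promoter peaks GATA letters were in 14.9% of stress-only and 11.1% of shared peaks, RUNX in 19.2% and 14.9%, E-box in 29.9% and 23.4%, and ETS in 6.70% and 11.1%. GC box letters were in 17.0% and 27.8% of CpG-poor peaks. YY1 letters were in 2.92% and 2.79% of CpG-poor peaks, so their lower share was not seen in this class. Among CpG-rich ones GATA letters were in 3.11% and 2.12%, ETS in 12.8% and 19.8%, YY1 in 1.69% and 6.28%, and the GC box in 57.5% and 61.6%. RUNX letters were in 5.87% of CpG-rich stress-only peaks and in 5.75% of CpG-rich shared ones. The order for GATA, RUNX and E-box letters also depended on the window. Over the whole interval, which is wider for shared peaks, GATA letters were in 24.1% of stress-only and 31.0% of shared promoter peaks and RUNX letters in 31.4% and 38.4%. E-box letters were then in 55.5% and 63.2%, and AP-1 letters in 14.83% and 14.85%.

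**Figure D2:**
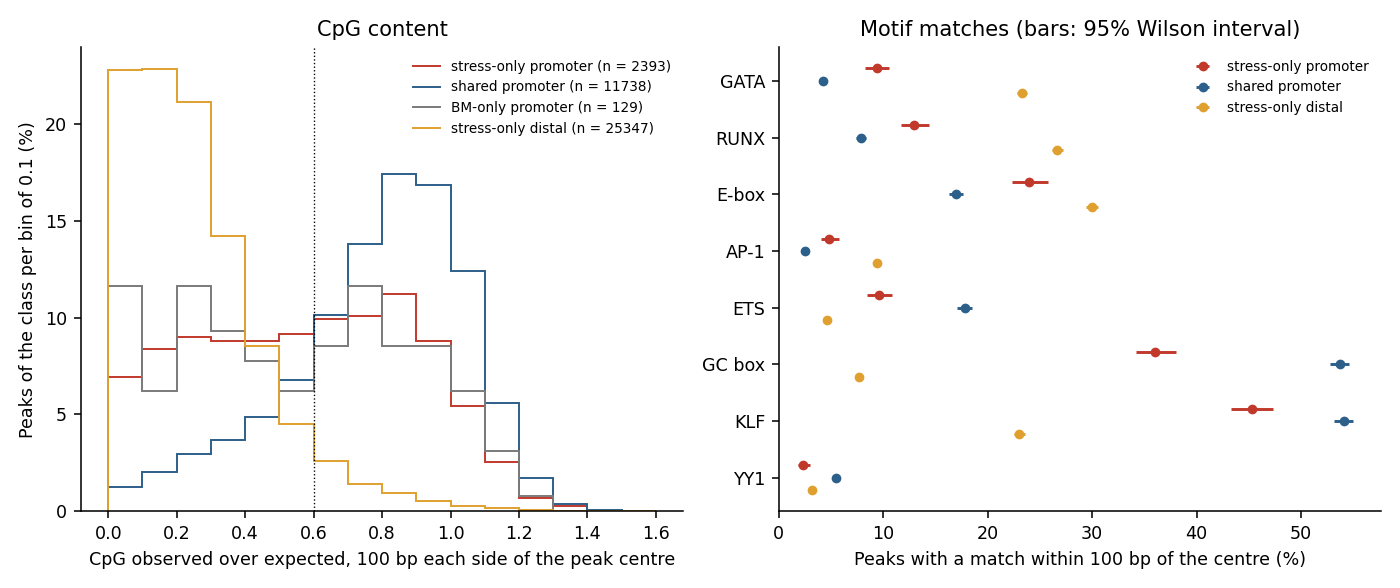
Left, the percent of peaks in each bin of the CpG observed over expected ratio, with a dotted line at 0.6, for 4 classes of peaks. Right, the percent of peaks with a match to each motif within 100 bp of the centre, with 95% Wilson intervals as bars. Stress-only promoter peaks lie between shared promoter and stress-only distal peaks for each motif drawn except YY1, for which they are the lowest of the 3 classes in that panel.

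RNA was not used to choose the peaks. The BM BFU-E libraries held 6758871 to 9463498 counts in the BFU-E table and the stress ones 10555143 to 12926718, while the MPP and CFU-E libraries held 5937778 to 13197159 over all genes of the stage table. BM libraries had more genes at 0: 5.81%, 1.53% and 15.3% in libraries 1, 2 and 3, against 0.420 to 0.738% in the stress libraries. BM library 3 stands apart in this, so results on BM are also given without it. Kit, the stem cell factor receptor, read 272, 338 and 306 CPM in BM and 253, 335 and 335 CPM in stress libraries. Gata2 read 425 to 727 CPM and 501 to 550 CPM. Both genes overlapped between the BFU-E populations. No MPP or CFU-E values were set beside them, so they do not check the BFU-E labels. Whether each library came from its own animal is not given in the sources used here, so p-values measure only the spread between libraries. In bulk RNA, fewer cells of a type and less RNA per cell cannot be told apart.

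About 1 in 3 genes with a stress-only promoter peak had detectable RNA in stress BFU-E, and nearly as many had it in BM BFU-E. Of the 2141 genes found in the RPKM tables, 747 (34.9%) reached at least 1 RPKM in at least 2 of 3 stress libraries, 706 (33.0%) in BM, 798 (37.3%) in MPP and 685 (32.0%) in CFU-E. The median level was 0.160 RPKM in stress BFU-E, 0.062 in BM, 0.232 in MPP and 0.081 in CFU-E, and 1057 genes (49.4%) stayed under 1 RPKM in all 12 libraries. In stress BFU-E itself 708 genes were listed at 0 in all 3 libraries, against 9158 of all 24072 genes. Over all genes 42.8% were detected in stress BFU-E, 40.0% in BM, 43.9% in MPP and 40.8% in CFU-E. Their median in stress BFU-E was 0.313 RPKM. The share of all genes under 1 RPKM in all 12 libraries was 46.6%, near that of the genes with a stress-only peak. Genes with shared promoter peaks and no stress-only one were detected in 75.6% of cases and had a median of 5.37 RPKM in stress BFU-E, while 15.1% of the genes without any stress promoter peak were detected.

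The low level belonged to genes whose only promoter peaks were stress-only. Among the 1678 genes with no BM promoter peak that were in the tables, 24.3% were detected in stress BFU-E and 22.8% in BM, with a median of 0.0465 RPKM in stress and 0 in BM. Among the 463 genes that had a BM promoter peak elsewhere, 73.2% were detected in stress BFU-E and 70.0% in BM, with medians of 4.99 and 5.92 RPKM, close to the genes with shared peaks alone. Genes with a CpG-rich stress-only peak were detected in 30.5% of cases in stress BFU-E and those with CpG-poor ones only in 39.2%. This split was not read apart from the one before. Of the 1268 CpG-poor peaks 347 lay at genes with a BM promoter peak elsewhere, and of the 1125 CpG-rich ones 149. The difference between detection in stress and in BM was small beside the step between BM libraries, of which 33.3%, 36.4% and 29.3% of the genes reached 1 RPKM in libraries 1, 2 and 3.

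**Figure D3:**
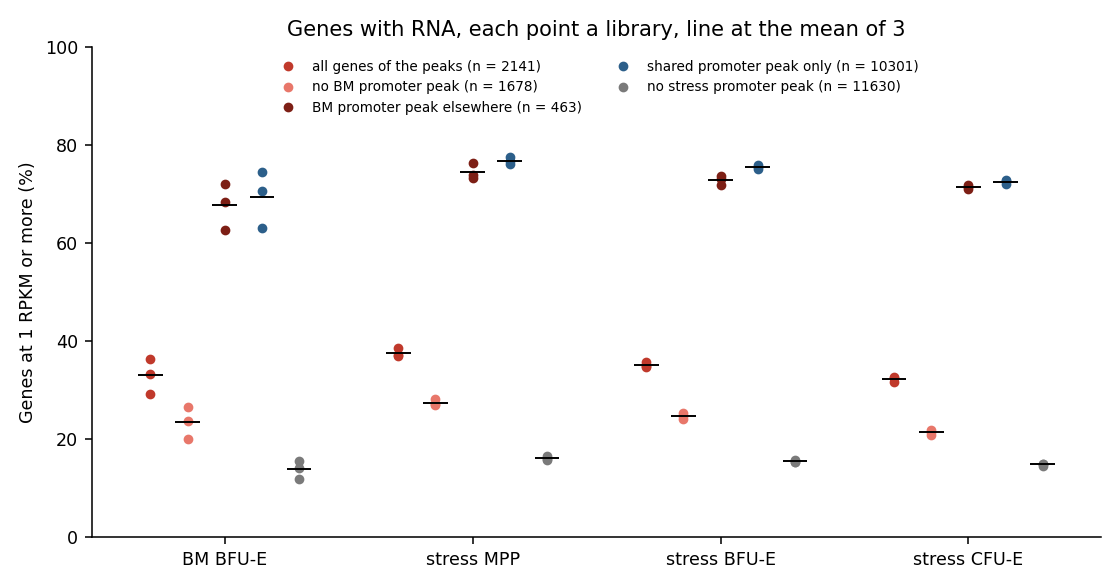
Percent of genes at 1 RPKM or more in each of the 12 RNA libraries (points, with a line at the mean of 3), for genes of stress-only promoter peaks, all and split by a BM promoter peak elsewhere, beside genes with shared promoter peaks alone and genes without a stress promoter peak. Genes with no BM promoter peak lie far below those with one elsewhere in all 4 populations, and the BM libraries are the most spread.

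RNA of the genes with stress-only promoter peaks was not higher as a group in stress than in BM BFU-E. The BFU-E count table, which the authors had filtered on low counts, held 818 of the 2143 genes. A gene silent in both populations could not enter, whereas a gene low in BM could enter through its stress libraries, or the reverse. The effect of this filter on the shares below was not tested. Of these 818 only Lgals1 was called by edgeR's quasi-likelihood test at an adjusted p under 0.05, and it was lower in stress; of all 10702 genes 0.112% were called. The median log2 difference, stress minus BM, was -0.06, against 0.01 over all genes. None was called higher. At an unadjusted p under 0.05, 33 (4.03%) were higher and 72 (8.80%) lower in stress, against 3.83% and 6.01% of all genes. DESeq2, which set 17 of the genes aside with no adjusted p, with a local dispersion trend called 20 higher and 57 lower at its adjusted threshold, out of 264 and 421 over all genes, and with a parametric trend 11 higher and 33 lower, out of 134 and 221. Libraries did not overlap between groups for 198 genes (24.2%, with 102 higher and 96 lower), against 21.9% of all 10702 genes (1369 higher and 972 lower).

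Without BM library 3 edgeR called 3 of the 818 genes lower and 0 higher, out of 22 and 5 over all 10702 genes. At an unadjusted p under 0.05 the counts were then 65 higher (7.95%) and 102 lower (12.5%), against 7.75% and 8.84% of all genes. With all 6 libraries, 11.1% of genes with CpG-poor stress-only peaks alone and 5.85% of genes with a CpG-rich one were lower in stress at an unadjusted p under 0.05; this difference was not tested. Genes with shared promoter peaks alone were lower in 5.61% of cases. Of the 818 genes, 8.07%, 2.69% and 17.7% were at 0 in BM libraries 1, 2 and 3, and 0.489 to 1.47% in the stress libraries.

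Lgals1 encodes galectin-1, a secreted lectin abundant in macrophages and stromal cells. It read 104, 106 and 183 CPM in the BM libraries and 19.1, 10.3 and 14.7 CPM in the stress libraries. Every stress library was below every BM library, and the log2 difference was -3.15 (SE 0.38, edgeR adjusted p = 0.0373). The call was kept without BM library 3 (0.024) and lost without any other library: without BM library 1 the edgeR adjusted p was 0.134, without BM library 2 0.0782, and without stress library 1, 2 or 3 it was 0.0966, 0.274 and 0.259. Its stress-only peak, chr15:78926018-78926405, lay 514 bp upstream of the start site, had a score of 807 and was 1421 bp from the nearest BM interval.

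The genes furthest below BM among those with a stress-only peak, none of which was called apart from Lgals1, included several genes of myeloid and immune cells. Lsp1, a leukocyte actin-binding protein, read 137, 263 and 423 CPM in BM and 36.4, 10.3 and 6.01 CPM in stress libraries (log2 difference -3.96, SE 0.74, edgeR adjusted p = 0.156). Irf5, a transcription factor of macrophage activation, read 35.0, 79.2 and 129 CPM in BM and 10.8, 5.35 and 4.73 CPM in stress (-3.54, SE 0.62, edgeR adjusted p = 0.135). Clec12a, an inhibitory lectin receptor of myeloid cells, read 18.3, 33.8 and 85.7 CPM against 5.15, 1.69 and 6.09 CPM (-3.41, SE 0.83, edgeR adjusted p = 0.254). In each the groups did not overlap and BM library 3 was the highest. Fcer1g, the signalling chain of Fc receptors, read 88.4, 17.0 and 53.6 CPM in BM and 5.61 to 6.10 CPM in stress. Cfp, which encodes the complement factor properdin, read 14.8, 49.7 and 79.8 CPM in BM and 4.24 to 6.29 CPM in stress, and the integrin gene Itgb7 read 139, 157 and 70.8 CPM in BM and 33.4, 9.67 and 12.8 CPM in stress. DESeq2 called these 6 genes lower. For Lsp1, Irf5, Clec12a, Fcer1g and Cfp the BM list held no promoter peak at all, while Itgb7 had one elsewhere. Olfm1, Lrch2 and Tgfbi were also among the largest falls, by -2.98, -2.98 and -2.12 in log2 (edgeR adjusted p = 0.233, 0.291 and 0.361). DESeq2 called them lower too.

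The summed RNA of macrophage markers was lower in stress BFU-E as well, while that of myeloid markers overlapped between the groups. The summed RPKM of 16 macrophage markers ranged from 21.6 to 42.5 over the BM libraries and from 3.97 to 7.76 over the stress libraries, where C1qa, C1qb, Marco, Mertk, Siglec1, Timd4, Vcam1 and Vsig4 were at 0 in all 3; Marco, Timd4 and Vsig4 were at 0 in all BM libraries too. That of 23 myeloid markers ranged from 337 to 904 in BM and from 235 to 385 in stress, with Camp, Cebpe, Fcnb and Lyz1 at 0 in all BM libraries and Lyz1 alone in all stress ones. The part of such cells in the lower RNA of these genes was not tested. Among the macrophage markers themselves 5 had a stress-only promoter peak: Adgre1, C1qc, Cd68, Mertk and Vcam1. Cd68, a lysosomal glycoprotein, read 50.8, 18.3 and 18.3 CPM in BM and 10.2, 2.72 and 7.69 CPM in stress (edgeR adjusted p = 0.457), and Adgre1, which encodes the antigen F4/80, read 4.56, 14.5 and 8.26 CPM in BM and 0, 0 and 1.52 CPM in stress (edgeR adjusted p = 0.594). C1qc, a complement subunit made by macrophages, was listed at 0, 0 and 0.287 RPKM in the stress libraries and at 0, 0 and 5.03 RPKM in BM. Stress-only promoter peaks were thus listed at these genes while their RNA was low or at 0 in stress BFU-E.

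Among the genes higher in stress, none of which was called by edgeR, Uaca, an apoptosis-linked ankyrin protein, showed the greatest difference under the naming rule. It read 14.4, 5.01 and 7.10 CPM in BM and 39.7, 40.8 and 28.0 CPM in stress (log2 difference 2.03, SE 0.63, edgeR adjusted p = 0.358). Usp14, a deubiquitinase of the proteasome, read 50.02, 50.3 and 43.2 CPM in BM and 110, 104 and 116 CPM in stress (1.20, SE 0.24, edgeR adjusted p = 0.176). Blmh, a cysteine protease, read 68.8, 78.4 and 65.9 CPM against 156, 137 and 119 CPM (0.95, SE 0.22, edgeR adjusted p = 0.233), and Rad9a, of the DNA damage checkpoint clamp, read 31.1, 45.6 and 32.7 CPM against 74.3, 74.8 and 101 CPM (1.19, SE 0.31, edgeR adjusted p = 0.283). These 4 did not overlap between groups and were called by DESeq2. The others so named were Chchd1, Cd48, Dnajc6, Dcun1d5, Umps and the kinetochore gene Spc24, which read 10.1, 59.5 and 7.97 CPM in BM and 77.1 to 100 CPM in stress. They included 5 genes (Usp14, Cd48, Dnajc6, Dcun1d5 and Spc24) that had a BM promoter peak elsewhere.

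**Figure D4:**
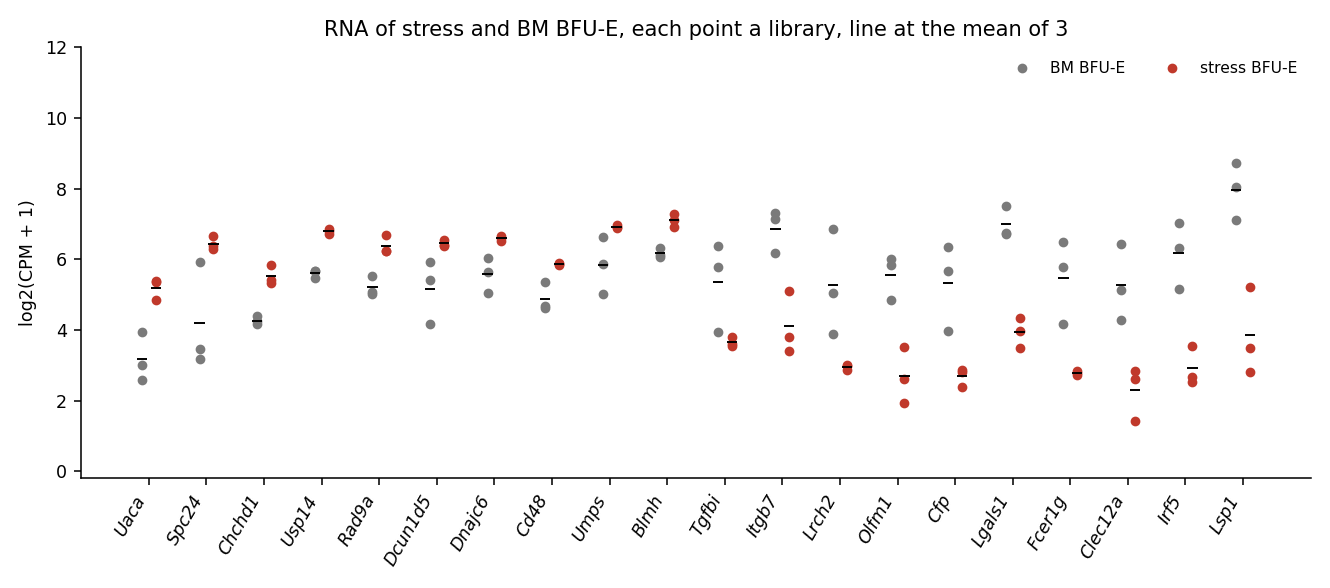
RNA as log2(CPM + 1) in each BM and stress BFU-E library (points, with a line at the mean of 3) for the 10 genes with the largest rises and the 10 with the largest falls under the naming rule. Libraries of the groups do not overlap for these genes, which the rule requires, and only Lgals1 was called by edgeR.

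Along the stress stages these genes changed more often than genes at large. The stage fit held 749 of the genes, from 9 spleen libraries and without any BM library; its comparisons share the stress BFU-E libraries with each other and with the BM comparison. From MPP to BFU-E, 28 (3.74%) rose and 37 (4.94%) fell by edgeR's quasi-likelihood test, against 2.03% and 2.11% of the 10166 genes tested. Genes with shared promoter peaks alone rose in 1.86% and fell in 1.73% of cases. From BFU-E to CFU-E, 74 (9.88%) rose and 168 (22.4%) fell, against 9.17% and 11.9% of all genes, and against 9.33% and 11.4% of genes with shared peaks alone. The share that rose was near the background and the share that fell was above it. The median log2 difference was -0.08 for BFU-E over MPP and -0.13 for CFU-E over BFU-E, whereas over all genes it was -0.0011 and -0.0022.

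Genes with and without a BM promoter peak elsewhere gave like shares. From BFU-E to CFU-E, 96 of 403 genes with no BM promoter peak fell (23.8%), as did 72 of 346 with one (20.8%). Both steps together left 485 of the 749 genes without a call (64.8%, against 77.0% of all genes). A rise into BFU-E followed by a fall into CFU-E was seen in 16 genes (2.14%, against 0.777% of all genes). A rise at both steps was seen in 7 (0.935%, against 0.443%) and a fall at both in 13 (1.74%, against 0.639%). A fall followed by a rise was seen in 7 (0.935%, against 0.384%). Each of these patterns was thus more frequent than among all genes. Calls at the MPP step fell when a library was left out, among these genes and among all genes. Without stress BFU-E library 1 or 3 there were 41 in place of 65, while over all genes 420 became 225 and 255.

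The genes with the largest falls into CFU-E included Timp3, Itgb3, Kcnj5, Pde10a, Uaca and Mmrn1. Timp3, an inhibitor of matrix metalloproteinases, read 120, 116 and 101 CPM in MPP, 211, 146 and 155 CPM in BFU-E and 0.31, 0 and 0.102 CPM in CFU-E. All BFU-E libraries were above all CFU-E libraries, which held 5 counts in all, and the fall was -10.10 on the log2 scale (SE 0.34, edgeR adjusted p = 6.65e-15), a size that depends on those few counts. Its peak, whose GC box and ETS letters are shown above, had a score of 962 and was CpG-rich. Itgb3, the integrin beta 3 chain of the platelet fibrinogen receptor, read 99.3, 96.9 and 102 CPM in MPP, 274, 233 and 227 CPM in BFU-E and 2.01, 2.29 and 1.32 CPM in CFU-E. It rose by 1.30 on the log2 scale into BFU-E (SE 0.14, edgeR adjusted p = 3.8e-06) and fell by 7.00 into CFU-E (SE 0.20, edgeR adjusted p = 9.65e-16). In BM BFU-E Itgb3 read 234, 294 and 143 CPM, within reach of the stress values (edgeR adjusted p = 0.907), although the BM list held no peak at its promoter.

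Kcnj5, a potassium channel subunit, read 7.53, 24.7 and 5.29 CPM in MPP, 86.6, 55.1 and 49.9 CPM in BFU-E and 0.0775, 0 and 1.63 CPM in CFU-E. Its fall into CFU-E held in every refit without 1 library. Its rise into BFU-E (edgeR adjusted p = 0.0162) was lost without MPP library 1 (0.0595) or 3 (0.0763) or BFU-E library 1 (0.136) or 2 (0.0501), and DESeq2 gave 0.338. Pde10a, a cyclic nucleotide phosphodiesterase, read 85.9 to 97.7 CPM in BFU-E and 0.697 to 0.931 CPM in CFU-E (log2 difference -6.74, SE 0.30, edgeR adjusted p = 5.45e-13). Uaca, which stood higher in stress than in BM, read 39.2, 40.1 and 27.5 CPM in BFU-E and 0.407 to 1.94 CPM in CFU-E, where it fell by 5.001 in log2 (edgeR adjusted p = 4.85e-09). The platelet granule protein Mmrn1 read 165 to 185 CPM in MPP, 143 to 173 CPM in BFU-E and 6.28 to 8.64 CPM in CFU-E (-4.40, SE 0.17, edgeR adjusted p = 4.28e-14), and the guanylate cyclase subunit Gucy1a3 fell by 4.34 (edgeR adjusted p = 4.58e-07). Robo3, an axon guidance receptor, rose by 1.58 into BFU-E and fell by 4.08 into CFU-E (edgeR adjusted p = 0.000914 and 2.21e-09).

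The genes with the largest rises into CFU-E included Ank1, Col5a1, Golm1, Spire1, Map3k6, Nfia and Slc29a1. Ank1, an ankyrin of the red cell membrane skeleton, read 3.88, 0.518 and 5.16 CPM in MPP, 9.28, 10.8 and 10.9 CPM in BFU-E and 227, 275 and 224 CPM in CFU-E. The groups did not overlap at either step, with log2 differences of 1.59 (SE 0.32, edgeR adjusted p = 0.0039) and 4.55 (SE 0.28, edgeR adjusted p = 9.06e-11). Ank1 has 2 stress-only promoter peaks, and in BM BFU-E it read 1.95, 0.626 and 0.29 CPM against 9.39, 10.99 and 11.1 CPM in stress, where the groups did not overlap and the edgeR adjusted p was 0.457. Col5a1, a fibrillar collagen chain, read 0 to 2.58 CPM in MPP, 7.20 to 13.5 CPM in BFU-E and 62.2 to 74.0 CPM in CFU-E and rose at both steps (edgeR adjusted p = 0.000424 and 5.16e-05). Golm1, a Golgi membrane protein, rose by 2.52 on the log2 scale into CFU-E, Spire1, an actin nucleator, by 2.50, Map3k6 by 2.47, and Nfia, a transcription factor known to favour the erythroid fate, by 2.34 (edgeR adjusted p = 1.72e-10, 8.04e-08, 1.33e-06 and 1.36e-09). Slc29a1, an equilibrative nucleoside transporter of the red cell, read 16.6, 19.8 and 18.7 CPM in BFU-E and 65.5, 82.5 and 59.8 CPM in CFU-E (1.92, SE 0.23, edgeR adjusted p = 2.34e-06).

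Genes that were high in MPP and lower in BFU-E were mixed in kind. Adgrl4, an adhesion receptor of endothelial and stem cells, read 263, 248 and 246 CPM in MPP and 71.2, 73.8 and 67.2 CPM in BFU-E (log2 difference -1.83, SE 0.14, edgeR adjusted p = 5.19e-08). Pglyrp2, which cleaves peptidoglycan, read 103, 84.3 and 60.4 CPM in MPP and 16.8, 10.9 and 18.3 CPM in BFU-E (-2.43, SE 0.28, edgeR adjusted p = 1.43e-05). Tgfbi, an extracellular matrix protein induced by TGF-beta, fell from 54.6 to 75.4 CPM in MPP to 10.4 to 12.8 CPM in BFU-E (edgeR adjusted p = 0.00548, and 0.111 in DESeq2). Among the genes that rose into BFU-E, Ltbp1, which binds latent TGF-beta, read 10.9, 3.97 and 5.55 CPM in MPP and 52.1, 83.9 and 59.4 CPM in BFU-E (3.20, SE 0.32, edgeR adjusted p = 2.12e-06). Slc14a1, the erythroid urea transporter, read 185, 208 and 168 CPM in MPP and 502, 442 and 458 CPM in BFU-E (1.32, SE 0.13, edgeR adjusted p = 1.39e-06). In BM BFU-E Slc14a1 read 584, 653 and 377 CPM. Both Ltbp1 and Slc14a1 had a BM promoter peak elsewhere.

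**Figure D5:**
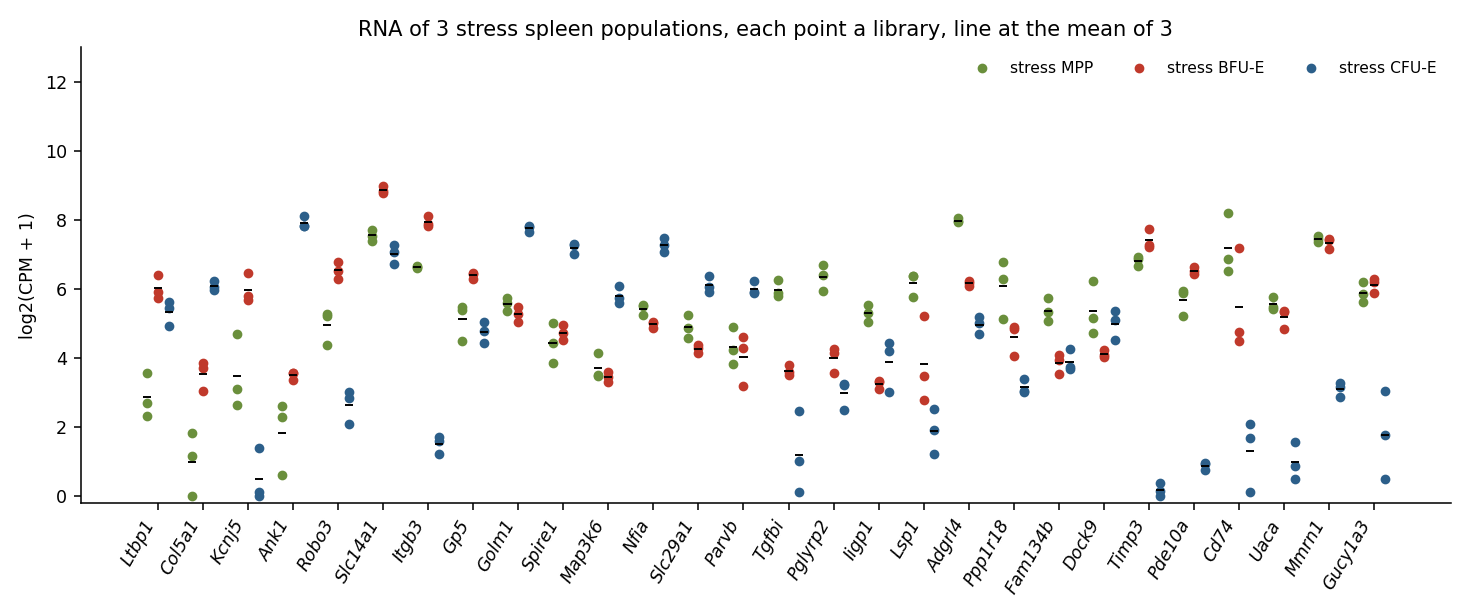
RNA as log2(CPM + 1) in each MPP, BFU-E and CFU-E library of stress spleen (points, with a line at the mean of 3) for the genes with the largest called changes at each step. Itgb3 is highest in BFU-E and near the bottom in CFU-E, whereas Ank1, Col5a1 and Golm1 are highest in CFU-E.

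Lists of genes by role were read for where stress-only promoter peaks fell in the erythroid programme. For scale, 2141 of all 24072 genes of the RPKM tables had such a peak, and 10301 had shared promoter peaks alone. Whether the share of any list differed from that of all genes was not tested. Of 26 erythroid transcription regulators 6 had one: Gata1, Lmo2, Bcl11a, Bach1, E2f2 and Zbtb7a. Gata1, the master regulator of the lineage, had a narrow peak of 369 bp with a score of 541, centred 105 bp upstream of its start site, and the nearest BM interval lay 2748 bp away. Its RNA read 148, 101 and 10.3 CPM in BM and 120, 103 and 123 CPM in stress BFU-E, so that 2 BM libraries were as high as the stress ones and library 3 was low (edgeR adjusted p = 0.91). Along the stages it read 69.7, 53.4 and 91.4 CPM in MPP, 119, 101 and 121 CPM in BFU-E and 160, 155 and 164 CPM in CFU-E. Both steps passed the test (log2 differences 0.67 and 0.49, edgeR adjusted p = 0.0202 and 0.0313). The first call was lost without MPP library 1 (0.0581) or 2 (0.073) or BFU-E library 1 (0.0916) or 3 (0.0953), and the second without any 1 of the 6 libraries compared (0.0589 to 0.142).

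Lmo2, the bridge protein of the GATA and TAL1 complex, had 3 stress-only promoter peaks beside a BM promoter peak. It read 372, 462 and 488 CPM in BM and 615, 654 and 632 CPM in stress BFU-E (log2 difference 0.52, SE 0.15, edgeR adjusted p = 0.309), where the groups did not overlap, and it fell by 0.48 into CFU-E (edgeR adjusted p = 0.000158). Bcl11a, a repressor of fetal globin genes, rose into CFU-E (0.68, edgeR adjusted p = 6.44e-05), and Bach1, E2f2 and Zbtb7a were not called in any of the 3 comparisons. Over the whole list of 25 tested regulators 11 rose and 4 fell into CFU-E.

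Haem synthesis genes held none of these peaks: among 19 such genes 18 had a shared promoter peak. DNA replication genes held none either, with 41 of 45 shared, and of 20 iron genes Iscu alone had one. In contrast, 6 of 31 genes of the red cell membrane and globin list had one, among them Ank1, Tmod1, Hbb-bs, Epb42 and Tspo2. Of the 4 in the stage fit, 3 rose into CFU-E, Ank1 and Tspo2 among them, and Tmod1 fell, and over the list 12 of 19 tested rose and 4 fell. Tspo2, a membrane protein of late erythroid cells, had no counts in any MPP library and read 4.49, 6.00 and 4.64 CPM in BFU-E and 34.2, 40.4 and 34.7 CPM in CFU-E. Against a floor of 3 counts over the MPP group it was at least 47.4-fold higher in BFU-E, and it rose by 2.85 on the log2 scale into CFU-E (edgeR adjusted p = 2.73e-05). Tmod1, which caps actin filaments of the membrane skeleton, fell from 19.7 to 23.2 CPM in BFU-E to 7.75 to 12.2 CPM in CFU-E (-1.10, edgeR adjusted p = 0.00795). The adult beta globin gene Hbb-bs and Epb42, which encodes protein 4.2, were not in the stage fit: Hbb-bs read 0, 4.21 and 0 RPKM in BM and 1.00, 3.66 and 0 RPKM in stress BFU-E.

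Of 20 megakaryocyte and platelet markers 5 had a stress-only promoter peak: Itgb3, Gp5, Gp6, Gp9 and Gata1. Gp5, a subunit of the platelet receptor for von Willebrand factor, read 43.7, 21.6 and 41.0 CPM in MPP, 76.8, 87.5 and 85.0 CPM in BFU-E and 31.7, 20.8 and 26.4 CPM in CFU-E, a rise of 1.22 followed by a fall of -1.66 in log2 (edgeR adjusted p = 0.00342 and 2.5e-05). Gp9, of the same receptor, fell by 3.59 into CFU-E (edgeR adjusted p = 9.93e-06), and Gp6, the collagen receptor, read 0, 0 and 0.113 RPKM in stress BFU-E, 0 in CFU-E and up to 2.39 RPKM in 1 BM library. Over the whole list 9 of 19 tested genes rose and 0 fell into BFU-E, and 1 rose and 18 fell into CFU-E. Gata1 was the one that rose at the second step. The list's summed level ranged from 477 to 566 RPKM in MPP, 878 to 1022 in stress BFU-E, 113 to 131 in CFU-E and 1179 to 1419 in BM BFU-E. The part of cells of megakaryocyte type in these values was not tested.

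Stem and multipotent progenitor genes held 10 such peaks among 38, at Lmo2, Runx1, Cd48, Angpt1, Esam, Gfi1, Prom1, Hoxa5, Hoxa7 and Hoxb5. Of the 6 in the stage fit none changed into BFU-E and 4 fell into CFU-E: Runx1 by 1.44, Angpt1 by 1.34, Esam by 3.11 and Lmo2 by 0.48 in log2 (edgeR adjusted p = 1.52e-08, 2.2e-08, 3.73e-06 and 0.000158). Angpt1, the TIE2 ligand angiopoietin-1, was abundant in both BFU-E populations, at 759, 483 and 641 CPM in BM and 514, 555 and 558 CPM in stress. Prom1 encodes CD133, an antigen used in the sort; its peak had a score of 540 and its RNA read 0.658, 0.018 and 0.111 RPKM in stress BFU-E and 0 in all BM and CFU-E libraries.

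Among signalling genes, 3 of 22 of the erythropoietin and STAT5 list had a stress-only promoter peak: Stat5b, the signal transducer of the erythropoietin receptor, Csf2rb2 and the feedback inhibitor Socs3. Stat5b was not called at any step and read 261, 252 and 69.7 CPM in BM and 165, 171 and 193 CPM in stress. Of 50 genes of the BMP, TGF-beta, WNT and hedgehog list 8 had one: Bmpr1a, Bmpr1b, Gdf15, Id3, Lrp6, Ptch1, Ski and Tcf7l2. The BMP receptor gene Bmpr1a read 0 RPKM in all BM libraries and 0.294, 0.248 and 0.071 RPKM in stress BFU-E, and Bmpr1b was at 0 in all 12 libraries. Ptch1, the hedgehog receptor, read 68.7, 32.3 and 0 CPM in BM and 58.3, 49.9 and 53.1 CPM in stress BFU-E (edgeR adjusted p = 0.918). Ski, a repressor of SMAD signalling, fell into CFU-E (-0.49, edgeR adjusted p = 0.0112), a call lost without BFU-E library 3 (0.0557) or CFU-E library 3 (0.0648).

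Interferon and antigen presentation genes held 10 such peaks among 46. Of the 9 in the stage fit Iigp1, an interferon-inducible GTPase, fell into BFU-E from 38.7, 45.1 and 32.0 to 7.56, 9.14 and 8.81 CPM (log2 difference -2.18, SE 0.36, edgeR adjusted p = 0.000649), and Ifi44 fell by 2.21 (edgeR adjusted p = 0.00383). Cd74, the invariant chain of MHC class II, read 294, 115 and 90.7 CPM in MPP, 144, 25.8 and 21.7 CPM in BFU-E and 3.25, 0.0847 and 2.24 CPM in CFU-E, where the fall of -5.09 was called (SE 0.73, edgeR adjusted p = 2.29e-05). BFU-E library 1 was far above the other 2 in Cd74. The class II chain gene H2-Ab1 read 113, 41.3 and 55.1 CPM in the same libraries and fell into CFU-E by 1.42 (edgeR adjusted p = 0.00141). Over the whole list 6 of 43 fell and 0 rose into BFU-E, and 8 rose and 10 fell into CFU-E.

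Adhesion and homing was the list with the largest share of such peaks among those examined, at 13 of 34 genes. Any stress promoter peak, stress-only or shared, was listed at 33 of these 34. The order of the lists was not tested. Of the 8 in the stage fit none changed into BFU-E, while Itga6, Itgb2 and Esam fell into CFU-E. Itga6, the laminin-binding integrin chain, read 323, 309 and 269 CPM in BFU-E and 80.8, 116 and 120 CPM in CFU-E (log2 difference -1.51, SE 0.13, edgeR adjusted p = 3.04e-08). Itgb2, the leukocyte integrin beta 2 chain, read 151, 182 and 284 CPM in BM and 81.1, 59.4 and 73.8 CPM in stress BFU-E, without overlap (-1.52, SE 0.28, edgeR adjusted p = 0.151). Cxcr4, the receptor that holds progenitors in the marrow, had 2 stress-only peaks and read 13.2, 43.7 and 71.6 CPM in BM and 17.7, 16.5 and 27.7 CPM in stress (edgeR adjusted p = 0.672). Ccr7, Madcam1 and Vcam1, also on this list, were at 0 RPKM in all stress BFU-E libraries.

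Of 60 chromatin regulators 6 had a stress-only promoter peak. Dnmt3a, a de novo DNA methyltransferase, fell from 176, 203 and 193 CPM in BFU-E to 96.0, 99.1 and 88.7 CPM in CFU-E (log2 difference -1.01, SE 0.11, edgeR adjusted p = 9.37e-07). Smarca5, a chromatin remodeller, rose by 0.42 (edgeR adjusted p = 0.0142), a call lost without BFU-E library 3 (0.0836) or CFU-E library 1 (0.0518). Of 27 CDK inhibitors and p53 targets 4 had one, and Trp53 itself rose into CFU-E from 146, 146 and 131 to 215, 192 and 210 CPM (0.54, SE 0.13, edgeR adjusted p = 0.00418), while Gadd45g fell by 2.76 (edgeR adjusted p = 0.00134). Of markers of other cells, 5 of 16 macrophage and 4 of 11 erythroblast markers had a stress-only promoter peak, against 0 of 15 mast cell, 0 of 23 myeloid, 1 of 12 B cell (Rag1), 1 of 14 T and NK cell (Il7r) and 2 of 15 endothelial and stromal markers (Emcn and Pdgfra). Rag1 and Il7r were at 0 RPKM in all BM and stress BFU-E libraries, and Pdgfra did not exceed 0.013 RPKM in them, although each had a stress-only promoter peak.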

How the data were processed

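RNA was measured in 12 libraries and accessible chromatin in 6 (3 per BFU-E population). The build was mm10, and the tools named, per the submitters' processing notes, were HOMER 4.8, DESeq2, Bowtie2 2.3.4.2 and STAR 2.6.0b-1. Per the file headers, HOMER counted exon reads per gene. The deposited counts are raw, and the authors filtered the BFU-E table on a mean of 50 tags. In that table the lowest mean count of the higher group was 50, and the lowest mean over the 6 libraries was 25. The filter thus acted on the higher group and not on the mean of all libraries. RPKM values were made by the authors, scaled to exon length and library size. The peak score and the signed distance to the nearest TSS are the authors' deposited values. The peak caller, the reproducibility threshold and the counting strand are not given in the sources used here.

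Entries of each peak list with the same chromosome, start and end were merged, and overlap was taken at 1 bp. Counts were tested with edgeR 4.0.16 in R 4.3.3 (TMM, quasi-likelihood F test, Benjamini-Hochberg adjusted p under 0.05 over all genes of the table), after checks on simulated data, with stage genes kept at a mean of 50 counts. The SE of a log2 difference is its size over the square root of the F statistic, an approximation. The BFU-E comparison used 6 libraries and the stage comparisons 9. DESeq2 1.42.0, other filters, other peak rules and leaving out single libraries were alternatives. Levels of BM BFU-E come from the 6-library RPKM table, a change from the plan, because the BM columns of the 12-library table followed the BM counts poorly (Pearson r across genes 0.404 to 0.599). Same-numbered libraries were not paired. Sequences were read from GRCm38 with pysam 0.24.0, and 16 motifs were searched.

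Genes are named by rule: called in the BFU-E comparison, the 10 largest differences each way there among genes with an unadjusted p under 0.05, no overlap and a mean of 20 CPM, the 8 largest called changes each way per stage step, up to 4 per gene list by peak score, the 10 top scores and the 5 peaks on each side of 1000 bp. Other genes named, the tie-break among top scores and the Gata1 sequence were chosen after values were seen. The peaks, the 19 gene lists and the 8 marker lists were chosen with earlier results of these data known. Values of 3 genes are not reported here.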

Additional observations from a re-analysis of the deposited data

How the results depend on the processing

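Taking promoters by the authors' annotation class in place of distance left 1440 stress-only peaks in place of 2393. For stress against BM BFU-E, where 1 gene was called, DESeq2 called 77 with a local dispersion trend, 66 with a mean trend and 44 with a parametric trend, and refits without 1 library called 0 to 3. Over all genes edgeR called 12, DESeq2 685, 579 and 355 in the same order, and the refits 0 to 27. DESeq2's own fit of the parametric trend converged or failed with the number of computing threads, so that trend was fitted by direct minimisation of the deviance; it and the mean trend were added after seeing the data. Without BM library 3, an alternative chosen after seeing the data, genes at an unadjusted p under 0.05 went from 33 to 65 higher. As shares these were 4.03 and 7.95%, against 3.83 and 7.75% of all genes. Genes without overlap went from 198 to 330 (24.2 to 40.3%), and among all genes from 21.9 to 37.1%. From MPP to BFU-E, 65 calls became 104 with no filter on low counts, 37 among genes with no BM promoter peak, and 41 to 51 without 1 library. The 65 were 8.68% of 749 genes tested and the 37 were 9.18% of 403, against 4.13% of all genes. The 104 were of 1644 tested, with 668 called over all genes. Without 1 library 225 to 332 were called over all genes, in place of 420. From BFU-E to CFU-E, 242 became 139 among genes with no BM promoter peak and 185 to 221 without 1 library. The 242 were 32.3% of 749 genes tested and the 139 were 34.5% of 403, against 21.1% of all genes. Without 1 library 1630 to 1986 were called over all genes, in place of 2145. The share detected in stress BFU-E, 34.9%, was 48.9% at 0.1 RPKM, 20.4% at 5 RPKM and 32.3 to 32.7% without 1 library. In BM, 33.0% became 38.9%, 20.8% and 24.4 to 29.4%, and 36.0% in the 12-library table. Over the whole interval and within 50 bp of the centre, GATA letters were in 24.1 and 4.43% of peaks, ETS in 24.2 and 5.06%, and the GC box in 58.8 and 23.2%, since the length searched differs.

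With the replicate number as a block, the BFU-E comparison called 0 genes, with the median of all genes at 0.19 in place of 0.01, the MPP step 73 and the CFU-E step 245. Over all genes these calls were 3, 476 and 2221. Same-numbered libraries did not deviate together in the BFU-E table (r from -0.0361 to -0.0295) and did so weakly along the stages (0.0151 to 0.116), so the block is given only here. The depth of the ATAC libraries is unknown, so weak BM peaks may be missing from the list, and genes absent from the filtered count tables were not tested.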
